A study of Homo sapiens with 6 samples.

Results

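The genes described here were the paired zinc-finger repressors GFI1 and GFI1B and 4 proteins that act with them, the histone demethylase LSD1 (gene KDM1A), its scaffold CoREST (RCOR1) and the histone deacetylases HDAC1 and HDAC2. The probes were found by matching the RefSeq accession of each array probe to its gene. This gave 6 genes with 7 probes, of 19718 named genes and 57176 probes in all, because HDAC2 had 2 probes. Expression was measured by 1-colour Agilent arrays in RPMI-8402, a long-established cell line from a human T-cell acute lymphoblastic leukaemia. The cells received a lentivirus with a short hairpin RNA. Per the study it was a control hairpin, or it was directed at GATA3 (shGATA3) or at TCF7, which encodes TCF1 (shTCF1). Hairpin arrays and hairpin groups below mean those of shGATA3 and shTCF1, since the control virus also carried a hairpin. All 3 groups were collected after 48 h, sorted for EGFP and labelled with Cy3 from 100 ng of total RNA, and each had 2 replicates on 1 array each. The line and the lentiviral transduction were therefore common to all groups, and every statement is limited to 1 leukaemia line.

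GFI1 and GFI1B bind DNA through closely related zinc fingers that recognise a core of the letters AATC. Their N-terminal SNAG domain mimics the tail of histone H3 and docks into LSD1, which removes methyl groups from lysine 4 of histone H3. CoREST tethers LSD1 to nucleosomes, and HDAC1 and HDAC2 in the same complex remove acetyl groups, so that the bound gene is shut down. GFI1 is best known in lymphoid and myeloid precursors, whereas GFI1B is best known in erythroid cells and megakaryocytes, where GATA1 acts on its promoter.

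The regions just before the annotated starts of both repressor genes were examined because GFI1 and GFI1B repress each other and themselves, and because the study concerned a GATA and a TCF factor. RefSeq (GRCh38.p14) lists 3 starts for GFI1 and 2 for GFI1B. The 250 bases before each were searched on both strands for AATC, for the GATA motif (AGATAA or AGATAG or TGATAA or TGATAG) and for the TCF motif (CTTTGAA or CTTTGAT or CTTTGTA or CTTTGTT). Both GFI1B windows and 1 of GFI1 are shown, 5′ to 3′ on the strand of the gene, with matches in capitals, and an AATC on the opposite strand reads GATT. The first GFI1B window is chr9:132978444-132978693 on the plus strand, the second is chr9:132945281-132945530 on the plus strand, and the GFI1 window is chr1:92486926-92487175 on the minus strand.
GFI1B start 2: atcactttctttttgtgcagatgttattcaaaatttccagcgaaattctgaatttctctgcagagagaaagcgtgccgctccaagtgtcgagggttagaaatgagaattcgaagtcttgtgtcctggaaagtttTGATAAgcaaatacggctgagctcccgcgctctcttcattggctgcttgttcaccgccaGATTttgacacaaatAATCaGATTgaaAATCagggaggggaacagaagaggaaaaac
GFI1B start 1: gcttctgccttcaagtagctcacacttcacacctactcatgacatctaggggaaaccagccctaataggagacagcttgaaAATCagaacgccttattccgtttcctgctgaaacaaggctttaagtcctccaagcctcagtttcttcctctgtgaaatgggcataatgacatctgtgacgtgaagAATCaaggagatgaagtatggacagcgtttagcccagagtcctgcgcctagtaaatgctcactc
GFI1 start 1: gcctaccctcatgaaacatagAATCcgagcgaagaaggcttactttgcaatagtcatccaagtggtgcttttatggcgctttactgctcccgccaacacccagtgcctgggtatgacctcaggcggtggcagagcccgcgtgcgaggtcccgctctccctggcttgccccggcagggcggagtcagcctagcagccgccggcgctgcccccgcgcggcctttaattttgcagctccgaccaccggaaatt

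The downstream start of GFI1B, start 2, had 4 AATC matches, all within the last 57 bases, and 7.15% of 35116 windows of this length had at least as many. It also had 1 GATA match, TGATAA, from 116 to 111 bases before the start. A GATA match was present in 22.3% of all windows. The upstream GFI1B start had 2 AATC matches and 0 GATA matches. The 3 GFI1 windows had 1, 0 and 1 AATC matches and 0 GATA matches, and 64.8% of all windows had at least 1 AATC. The TCF motif was found in 0 of these 5 windows and in 12% of all windows. These matches describe letters only, since binding was not measured on these arrays.

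**Figure D1:**
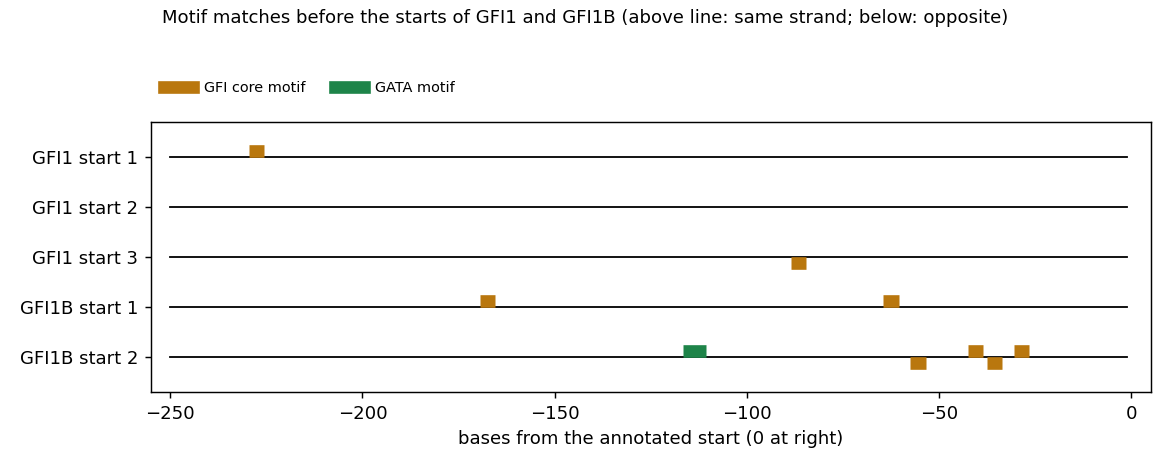
Positions of GFI core (AATC) and GATA motif matches in the 250 bases before the 3 starts of GFI1 and the 2 starts of GFI1B, in bases from the start; blocks above a line are on the strand of the gene and blocks below it on the opposite strand. The 4 GFI core matches of GFI1B start 2 lie within its last 57 bases, and its GATA match is the only one in the 5 windows.

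A probe was tested when the scanner software marked it well above background on the 2 arrays of 1 or more groups, which held for 31131 of the 57176 probes. Each array had 51.1 to 56.2% of its probes so marked, and no probe was saturated. The 75th percentile of the intensities was 271.4 and 289.7 on the control arrays but 166.2 to 179.5 on the 4 hairpin arrays, before normalization. All 6 arrays lay on 1 slide with 1 scan, the control arrays in 1 row and the hairpin arrays in the other, so position and hairpin cannot be told apart. Array profiles correlated more closely within groups (r across probes 0.9929 to 0.994) than between groups (0.9804 to 0.9875). The 11 T-lineage markers, among them CD3E, CD7 and LCK, were detected on every array. Markers of other lineages were detected too, 6 of 8 erythroid and megakaryocytic genes, 2 of 5 myeloid genes and 3 of 5 B-lineage genes on every array, whereas CSF1R, CEBPA and EBF1 were detected on none. The study describes the 2 replicates of each group as separate experiments, and the labels say no more of their origin.

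The targeted genes were examined first. TCF7 fell in the arrays labelled shTCF1, by 1.31 ± 0.0981 (SE) and 1.48 ± 0.126 on the log2 scale for its 2 probes (adjusted p = 0.00393 and 0.00462, limma). GATA3, in contrast, did not differ detectably between the arrays labelled shGATA3 and control. Its normalized log2 intensity was 9.54 and 9.56 on the control arrays and 9.46 and 9.55 on the arrays labelled shGATA3, a difference of -0.05 (95% interval -0.31 to 0.21, adjusted p = 0.795). Against the arrays labelled shTCF1, which gave 9.76 and 9.90, the difference was -0.33 (95% interval -0.58 to -0.07, adjusted p = 0.136), and those groups did not overlap. These arrays are therefore called by their label throughout, and no direction given for them rests on a measured fall in GATA3 RNA.

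Among the 6 genes, GFI1B alone was called, and it was so in the arrays labelled shGATA3. It was 2.2-fold lower there than in control and 2.69-fold lower than in the arrays labelled shTCF1. The call against control was close to the threshold (adjusted p = 0.0481, limma) and was made in 5 of the 17 alternatives described below. No probe of GFI1, KDM1A, RCOR1, HDAC1 or HDAC2 passed the threshold in any comparison. At an adjusted p below 0.05 over all tested probes, 1 of the 7 probes was called between shGATA3 and control, where 6.84% of all tested probes were called. For shTCF1 against control it was 0 of 7, where 16.9% were called, although the unadjusted limma p was below 0.05 for KDM1A (0.0113) and for 1 HDAC2 probe (0.0253). For shGATA3 against shTCF1 it was 1 of 7, where 6.18% were called. By direction, 3.96% of all tested probes were called lower and 2.88% higher in the first comparison, 9.73% and 7.21% in the second, and 2.60% and 3.58% in the third. These shares say nothing of the 6 genes as a group, since 1 call in 7 is the smallest count above 0. Both comparisons with control share the same 2 control arrays.

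GFI1B had normalized log2 intensities of 7.34 and 7.23 in control (mean 7.28 ± 0.0769, SD, n = 2). The arrays labelled shGATA3 gave 5.77 and 6.52 (6.14 ± 0.533). The arrays labelled shTCF1 gave 7.57 and 7.57 (7.57 ± 0.00403). Both arrays labelled shGATA3 lay below all 4 others, and they differed from each other far more than the arrays of either other group. The difference from control was -1.14 ± 0.239 on the log2 scale (95% interval -1.73 to -0.55, adjusted p = 0.0481), and 2.2% of tested probes differed more. The difference from shTCF1 was -1.43 ± 0.239 (95% interval -2.01 to -0.84, adjusted p = 0.0272), and 1.34% of tested probes differed more. Between shTCF1 and control the difference was 0.29 (95% interval -0.30 to 0.87, adjusted p = 0.43).

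The GFI1B signal, from 1 probe with 1 spot per array, was moderate and well above background on all 6 arrays. Its intensity before normalization was 201 and 203 on the control arrays, 43.1 and 77.7 on those labelled shGATA3, and 165 and 153 on those labelled shTCF1. The dimmest probe that was well above background had an intensity of 11.3 to 19.4, depending on the array. Of the probes well above background, 47.6 and 48.8% were dimmer than GFI1B on the control arrays. This fell to 24.1 and 38.1% on the arrays labelled shGATA3, and it was 51.6 and 49.4% on those labelled shTCF1, so the lower rank was seen without any scaling between arrays. In bulk RNA, fewer cells that express GFI1B and less GFI1B RNA per cell cannot be told apart.

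**Figure D2:**
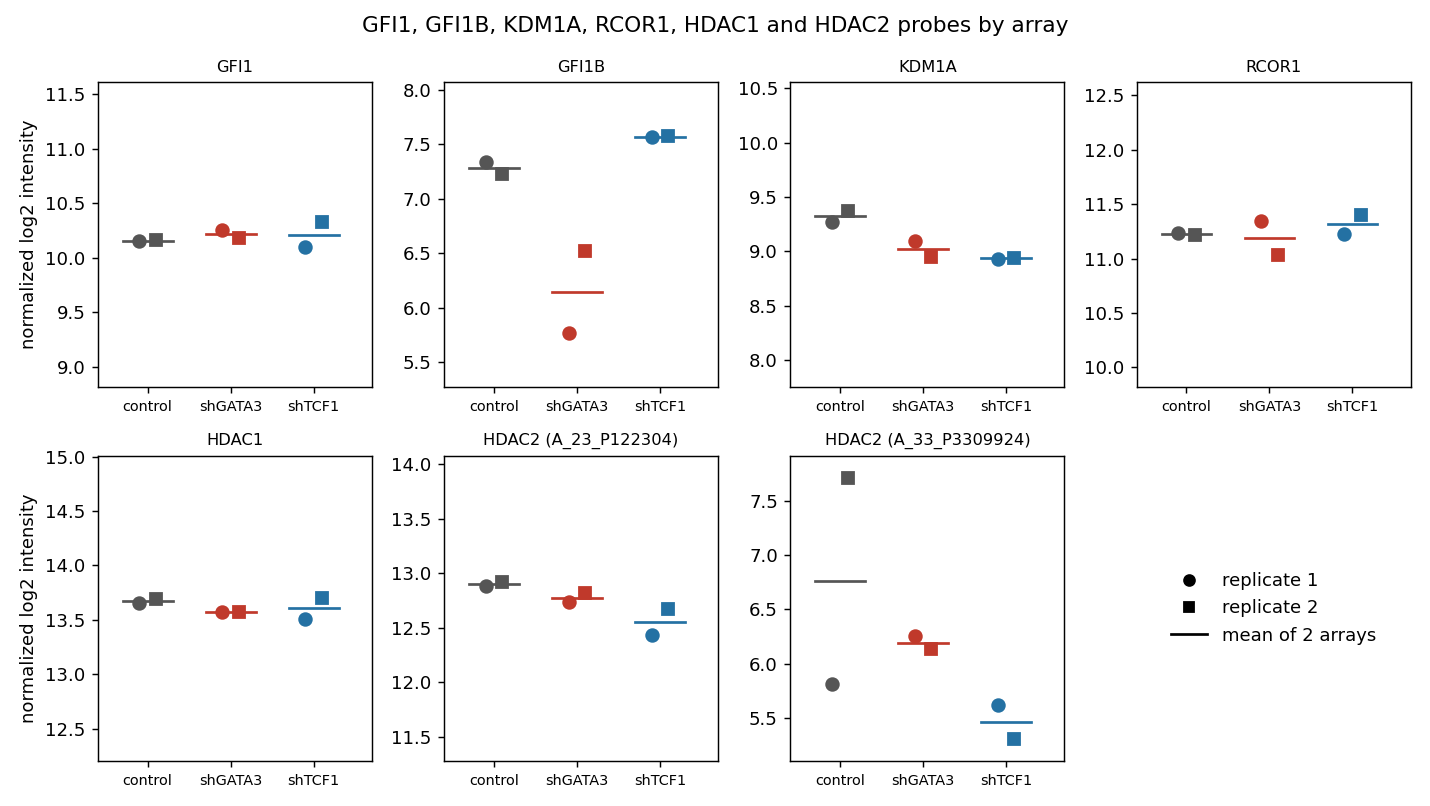
Normalized log2 intensity of each of the 7 probes on the 6 arrays (circles, replicate 1; squares, replicate 2; line, mean of 2 arrays), every panel spanning the same number of log2 units. Both GFI1B values labelled shGATA3, 5.77 and 6.52, lie below the other 4, while the GFI1 panel is nearly flat and the control arrays of HDAC2 probe A_33_P3309924 stand apart at 5.82 and 7.71.

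The GFI1B call against control was close to the threshold and did not hold in most alternatives. It was made in 5 of 17 alternatives (changes of scaling, filter, variance model, block or samples), and the adjusted p was 0.0718 with 75th percentile scaling, 0.0762 with quantile normalization and 0.0725 with cyclic loess at nearly the same difference. Without shGATA3 replicate 1 the difference was -0.76 (adjusted p = 0.0524), and without control replicate 1 or 2 it was -1.09 and -1.19 (adjusted p = 0.189 and 0.126). With the 4 arrays compared alone the difference was unchanged, but the adjusted p rose to 0.0827. Leaving out either shTCF1 array repeats that fit, so the 17 alternatives are not all distinct. In the comparison with shTCF1, leaving out either control array does the same. Against shTCF1 the call was made in 13 of 17 alternatives, among them all 4 other scalings, and was lost without shTCF1 replicate 1 (-1.43, adjusted p = 0.101) or replicate 2 (-1.42, adjusted p = 0.112). The mean of GFI1B was lower in the arrays labelled shGATA3 under all 17 alternatives in both comparisons. Alternatives that changed only the filter, the variance model or the block keep the same difference by construction, as does leaving out an array of the group not compared. The smallest difference, -0.07 against control, came from the matrix of values deposited by the authors. In that matrix shGATA3 replicate 1, at 6.59, lay below all other arrays, but replicate 2, at 7.8, lay above them. Control gave 7.25 and 7.28 there, and shTCF1 gave 7.62 and 7.5. After each probe was centred on its own mean, the matrix columns correlated weakly with the scanner arrays they are named for (r across probes 0.049 to 0.56). The control and shGATA3 columns each correlated best with the other replicate of their group. This was 0.55 against 0.27 with its own array for shGATA3 replicate 1, and 0.5 against 0.34 for control replicate 1. The gap was small for shGATA3 replicate 2 (0.35 against 0.32). The column of control replicate 2 matched neither control array (0.063 against 0.049). The shTCF1 columns correlated best with their own arrays.

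**Figure D3:**
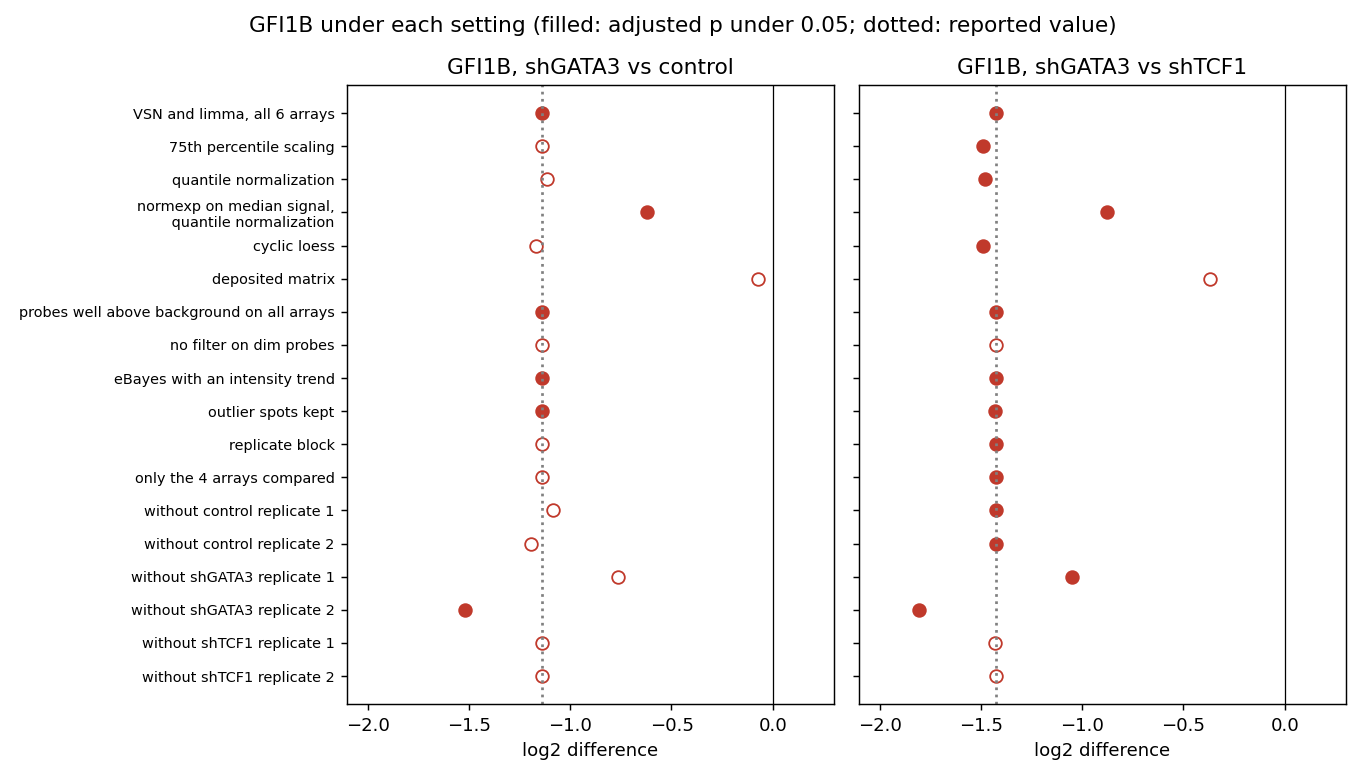
Log2 difference of GFI1B under the reported fit (top) and each of the 17 alternatives, against control (left) and against shTCF1 (right); filled points have an adjusted p under 0.05 and the dotted line marks the reported value. All points lie below 0, from -1.52 to -0.07 on the left and from -1.80 to -0.37 on the right. Points on the dotted line from changes of filter, variance model or block, or from leaving out an array of the group not compared, equal the reported value by construction.

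Since GFI1B is characteristic of the red cell and platelet lineages, markers of those cells are given beside it. Of the 7 tested markers of that list, 0 were called by limma in any of the 3 comparisons. The unadjusted p was below 0.05 for 0 of them between shGATA3 and control, 4 between shTCF1 and control and 2 between shGATA3 and shTCF1, and for 26.5%, 35% and 23.4% of all tested probes. With 6.84%, 16.9% and 6.18% of all tested probes called, few or no calls among 7 genes are uninformative. KLF1, the erythroid Krüppel-like factor, differed by 0.06 between shGATA3 and control (adjusted p = 0.811). The mean normalized log2 intensity of the 7 markers was 6.89 and 6.82 in control, 6.88 and 7.07 in the arrays labelled shGATA3, and 7.03 and 7.05 in those labelled shTCF1. GATA1, the GATA factor of erythroid cells, was not well above background on both arrays of any group. The median difference of the 7 markers was 0.10 between shGATA3 and control and -0.14 between shGATA3 and shTCF1, and the part of such cells in the GFI1B result was not tested.

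GFI1, the paralogue with known roles in lymphoid precursors, was expressed at nearly the same level throughout. Its normalized log2 intensity was 10.15 and 10.16 in control, 10.25 and 10.18 in the arrays labelled shGATA3, and 10.10 and 10.32 in those labelled shTCF1. The groups differed by at most 0.06 in their means. The 95% interval of the difference was -0.22 to 0.34 for shGATA3 against control (adjusted p = 0.779) and -0.23 to 0.34 for shTCF1 against control (adjusted p = 0.764). The GFI1B difference of -1.14 between shGATA3 and control lay outside the GFI1 interval for that comparison, and the difference between the responses of the paralogues was itself not tested.

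KDM1A, which encodes LSD1, had the lowest adjusted p of the complex subunits. It gave 9.27 and 9.37 in control, 9.099 and 8.95 in the arrays labelled shGATA3, and 8.93 and 8.94 in those labelled shTCF1. All 4 hairpin arrays lay below both control arrays, which are also the arrays in the other row of the slide. The difference from control was -0.39 in shTCF1 (95% interval -0.65 to -0.12, 1.31-fold, adjusted p = 0.0584) and -0.30 in shGATA3 (95% interval -0.56 to -0.04, adjusted p = 0.149). Neither passed the threshold. For shTCF1 it was passed in 3 of 17 alternatives, with normexp background correction (adjusted p = 0.0139), with probes well above background on all arrays (0.0422) and with an intensity trend in the variance (0.0203).

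RCOR1, the CoREST scaffold, gave 11.24 and 11.22 in control, 11.34 and 11.04 in the arrays labelled shGATA3, and 11.22 and 11.40 in those labelled shTCF1. The values of both hairpin groups spanned those of control or overlapped with them. Its differences were -0.04, 0.08 and -0.13 for shGATA3 against control, shTCF1 against control and shGATA3 against shTCF1 (adjusted p = 0.873, 0.696 and 0.633).

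HDAC1 was bright, with 5 spots averaged per array. It gave 13.66 and 13.69 in control, 13.57 and 13.58 in the arrays labelled shGATA3, and 13.51 and 13.70 in those labelled shTCF1. The differences from control were -0.10 (95% interval -0.37 to 0.17, adjusted p = 0.596) and -0.07 (95% interval -0.34 to 0.20, adjusted p = 0.689).

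HDAC2 was measured by 2 probes that disagreed within the control group. Probe A_23_P122304, again with 5 spots, gave 12.88 and 12.92 in control, 12.73 and 12.82 in the arrays labelled shGATA3, and 12.44 and 12.67 in those labelled shTCF1. Both hairpin groups lay below control, and the difference for shTCF1 was -0.35 (95% interval -0.64 to -0.06, adjusted p = 0.0939). It passed the threshold in 4 of 17 alternatives, 3 of them other scalings, with adjusted p of 0.045 under quantile normalization, 0.00787 under normexp and 0.0493 under cyclic loess. Probe A_33_P3309924, with 1 spot, gave 5.82 and 7.71 in control, 6.26 and 6.13 in the arrays labelled shGATA3, and 5.63 and 5.31 in those labelled shTCF1. Its control arrays thus differed by more than the groups did, with intensities of 66.2 and 286. Its difference between shTCF1 and control was -1.29 ± 0.564 (adjusted p = 0.163), -2.24 without control replicate 1 (adjusted p = 0.019) and -0.35 without control replicate 2 (adjusted p = 0.314). Its difference between shGATA3 and control was -0.57 (adjusted p = 0.557), and it was -1.51 without control replicate 1 (adjusted p = 0.0341) and 0.38 without control replicate 2.

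Separation of the 4 arrays compared was common and is therefore a weak criterion. The groups did not overlap for 5 of the 7 probes between shGATA3 and control, where this was so for 60.2% of all tested probes. They did not overlap for 4 of 7 between shTCF1 and control, where it was so for 66.9%, and for 4 of 7 between shGATA3 and shTCF1, where it was so for 52.0%.

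**Figure D4:**
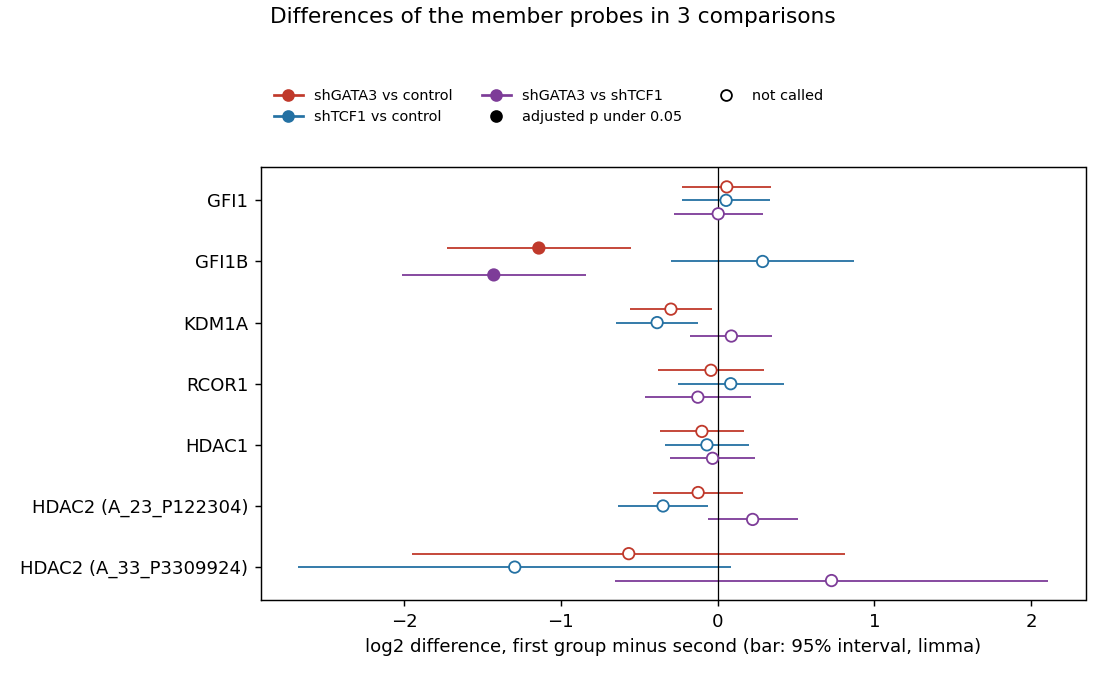
Log2 differences of the 7 probes with their 95% intervals from limma, in 3 comparisons; filled points have an adjusted p under 0.05. The filled points are those of GFI1B at -1.14 and -1.43, and the widest intervals belong to HDAC2 probe A_33_P3309924.

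Genes that work beside these 6 were counted next, in 5 lists of 59 genes, of which 47 were tested with 1 probe each. Of these 47, 3 were called between shGATA3 and control, all lower (6.38%, against 6.84% of all tested probes). Between shTCF1 and control 8 were called, 3 higher and 5 lower (17%, against 16.9%). Between shGATA3 and shTCF1 2 were called, both lower (4.26%, against 6.18%). The medians of the 47 differences were -0.05, -0.06 and 0.01, beside -0.01, -0.02 and -0.00409 over all tested probes. The lists were therefore called about as often as the arrays as a whole.

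Among the other LSD1-CoREST subunits and paralogues, 10 of 11 were tested, and RCOR3, a paralogue of CoREST, was the only one called. It fell by 0.46 ± 0.109 on the log2 scale in shTCF1 against control (adjusted p = 0.0396), from 9.46 and 9.32 to 8.91 and 8.94, and its second probe by 0.43 (adjusted p = 0.0445). The LSD1 paralogue KDM1B was not well above background on both arrays of any group. The median of the 10 genes was -0.04 between shGATA3 and control and -0.05 between shTCF1 and control.

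Among 6 other factors with a SNAG domain or that recruit CoREST, 2 were tested, REST and SNAI1. SNAI1, a SNAG-domain repressor best known for silencing epithelial genes, was lower in both hairpin groups. It gave 8.17 and 7.94 in control, 7.21 and 7.10 in the arrays labelled shGATA3, and 7.41 and 7.49 in those labelled shTCF1. It fell by 0.90 ± 0.119 in shGATA3 (adjusted p = 0.0154) and by 0.60 ± 0.119 in shTCF1 (adjusted p = 0.026). SNAI2, INSM1, SCRT1 and OVOL1 were not tested because they were too dim.

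HDAC1 and HDAC2 are shared with the NuRD and SIN3 complexes, of which 14 of 16 listed subunits were tested. MTA2, a NuRD subunit that binds HDAC1, rose by 0.91 ± 0.14 in shTCF1 (adjusted p = 0.014). It gave 10.46 and 10.44 in control, 11.27 and 10.92 in the arrays labelled shGATA3, and 11.32 and 11.40 in those labelled shTCF1. Its difference of 0.65 between shGATA3 and control missed the threshold (adjusted p = 0.0506). None of the other 13 was called in any comparison, and with MTA2 included 3, 4 and 4 of the 14 had an unadjusted limma p below 0.05 in the 3 comparisons, beside 26.5%, 35% and 23.4% of all tested probes.

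Of 9 other histone deacetylases, 8 were tested. HDAC5, a class IIa deacetylase, was lower in shGATA3 than in shTCF1 by 0.64 ± 0.103 (adjusted p = 0.0238), with 8.30 and 8.45 against 9.01 and 9.02 and 8.62 and 8.61 in control. HDAC11 fell by 0.53 ± 0.128 in shTCF1 (adjusted p = 0.0418), but its second probe differed by 0.01 (adjusted p = 0.958). The HDAC11 call was made in 7 of 17 alternatives and was lost with 75th percentile scaling (adjusted p = 0.0566), quantile normalization (0.0688), normexp (0.0547), no filter on dim probes (0.0938) and the replicate block (0.0701).

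The last list held 17 genes known from the literature as targets of GFI1 or GFI1B, 13 of them tested. Such targets are known to rise when their repressor is lost, and whether these genes are bound in this line was not measured. In shGATA3 against control, 0 of the 13 were called higher by limma and 2 were called lower, RGS18 and SPI1. At an unadjusted p below 0.05, 2 were higher and 4 lower, beside 26.5% of all tested probes in either direction. With 2.88% of all tested probes called higher and 3.96% lower, a count of 0 higher in 13 is uninformative. In shTCF1 against control, HOXA9 and SOCS3 were higher and RGS18 and SPI1 lower, 30.8% of the list against 16.9% of all tested probes. The list's median was -0.02 in the first comparison and 0.24 in the second.

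RGS18, a regulator of G-protein signalling in platelets and their precursors, gave 7.68 and 7.47 in control, 6.46 and 6.53 in the arrays labelled shGATA3, and 6.80 and 6.77 in those labelled shTCF1. It fell by 1.08 ± 0.113 in shGATA3 (adjusted p = 0.00852) and by 0.79 ± 0.113 in shTCF1 (adjusted p = 0.0122). SPI1, which encodes the myeloid and B-lineage factor PU.1, gave 7.49 and 7.26 in control, 6.81 and 6.65 in the arrays labelled shGATA3, and 6.77 and 6.65 in those labelled shTCF1. It fell by 0.65 ± 0.129 and 0.67 ± 0.129 (adjusted p = 0.0425 and 0.0246). All 4 hairpin arrays thus lay below control for both genes.

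SOCS3, a feedback inhibitor of cytokine receptors, gave 9.05 and 9.1 in control, 8.72 and 8.76 in the arrays labelled shGATA3, and 9.66 and 9.66 in those labelled shTCF1. It rose by 0.58 ± 0.0947 in shTCF1 (adjusted p = 0.016), differed by -0.34 in shGATA3 (adjusted p = 0.0895), and was lower in shGATA3 than in shTCF1 by 0.92 ± 0.0947 (adjusted p = 0.0061). HOXA9, a homeobox factor of haematopoietic precursors, rose by 0.87 ± 0.117 in shTCF1 (adjusted p = 0.0107), from 9.01 and 8.82 to 9.85 and 9.72. Its second probe was well above background on 0 arrays and was not tested. BAX, the pro-apoptotic member of the BCL2 family, had the largest difference of the list in shGATA3, -1.20, but its arrays gave 11.77 and 10.20 and it was not called (adjusted p = 0.175).

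Over the 17 alternatives, SOCS3 between shGATA3 and shTCF1 was called in 16, RGS18 in 15 for shGATA3 and 13 for shTCF1, HOXA9 in 15, SNAI1 in 12 for shGATA3 and 11 for shTCF1, MTA2 and SOCS3 in shTCF1 in 12 each, SPI1 in 7 for shGATA3 and 11 for shTCF1, RCOR3 in 10 and HDAC5 in 8. Leaving out 1 array often ended these calls. Leaving out an array of the group not compared repeats the fit to the 4 arrays compared alone, so the fits counted here are not all distinct. The call of SOCS3 between shGATA3 and shTCF1 was made in all 6 such fits. That of RGS18 in shGATA3 was lost without control replicate 1 (-0.98, adjusted p = 0.051), and that of HOXA9 in shTCF1 without control replicate 2 (0.78, adjusted p = 0.0555). The call of SNAI1 in shGATA3 was lost in 3 of 6 fits, without control replicate 1 or either shGATA3 array (adjusted p = 0.0515 to 0.0896). RGS18 in shTCF1 was lost without control replicate 1 or either shTCF1 array (0.0505 to 0.0732). RCOR3, SNAI1, MTA2, HDAC11, SPI1 and SOCS3 in shTCF1 were lost whenever any of the 4 arrays compared was left out, with adjusted p of 0.0538 to 0.204. SPI1 in shGATA3 and HDAC5 between the hairpins were lost without any 1 of the 6 arrays (0.068 to 0.211 and 0.0587 to 0.0944).

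**Figure D5:**
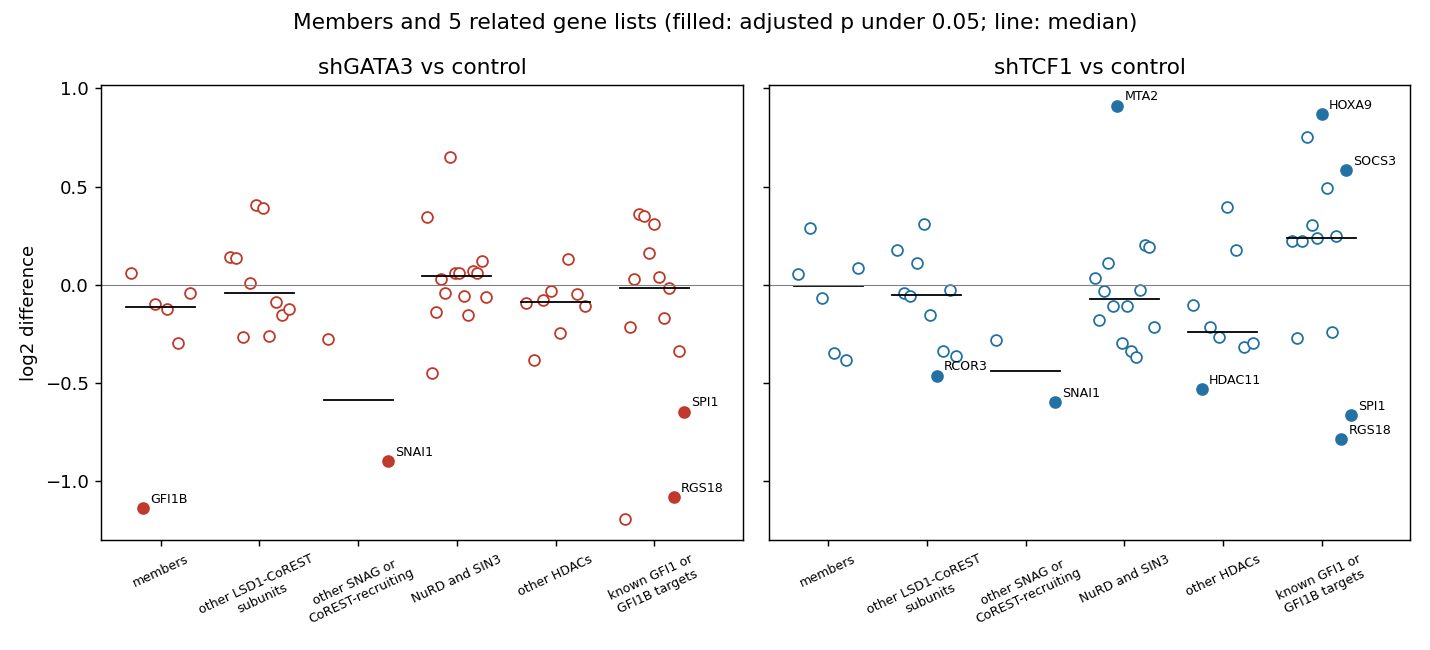
Log2 differences from control of the 6 genes and of the tested genes of the 5 related lists, 1 probe per gene, for shGATA3 (left) and shTCF1 (right); filled and named points have an adjusted p under 0.05 and the line is the list's median. GFI1B at -1.14, RGS18 at -1.08, SNAI1 at -0.90 and SPI1 at -0.65 are the filled points on the left, and MTA2 at 0.91 and HOXA9 at 0.87 are the highest on the right.

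The genes whose pattern over the 6 arrays was closest to that of each repressor were found among 13490 genes, by the root mean square difference of the profiles after each was centred on its own mean. For GFI1B, whose own root mean square spread was 0.655, these were CD52, a small surface glycoprotein of lymphocytes (0.141), the adhesion receptor NECTIN1 (0.204) and SPNS3, a member of the spinster transporter family (0.225). CD52 gave 12.22 and 12.27 in control, 10.98 and 11.39 in the arrays labelled shGATA3, and 12.37 and 12.44 in those labelled shTCF1. The array with the lowest GFI1B, shGATA3 replicate 1, also had the lowest CD52. CD52 was chosen for its closeness to GFI1B on these same arrays, so this match is no independent support. For GFI1, with a spread of only 0.0738, they were CTDSPL2 (0.0156), the histone chaperone subunit SSRP1 (0.0159) and RGP1 (0.0234), all as flat as GFI1 itself.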

How the data were processed

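RNA from 6 samples of RPMI-8402 cells was measured on 6 one-colour arrays, and titles gave the groups and replicate numbers. Per the file headers, the authors deposited intensity values from Agilent Feature Extraction 10.7.1.1 (the processing notes name 9.1), with the background of each spot subtracted and arrays not scaled to each other, together with other columns of median signals and of marks for background, saturation and outliers. A matrix of log2 values, deposited by the authors and described in the methods as VSN-normalized, came with them. It was used as an alternative only, with its centring and scale unknown. The medians of its columns were 4.94 to 5.11. The columns of per-sample values were all assigned, and 0 were left unused. Columns of the authors' own comparisons were not used.

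Control spots and spots marked as outliers were left out (71 probes lost), spots of a probe were averaged, and the VSN model (variance stabilizing normalization, rewritten in R 4.3.3, trimming quantile 0.9, 7 iterations, 5 strata) gave normalized log2 intensities. Tests were limited to the 31131 of 57176 probes marked well above background on the 2 arrays of 1 or more groups. Of all probes, 25725 were named through the accession in the RefSeq table of GRCh38.p14. Differences were tested two-sided with limma 3.58.1 (lmFit, eBayes) in 1 fit to the 6 arrays, with a term for group and no other, after the study's use of VSN and limma, and p-values were adjusted by Benjamini-Hochberg over the 31131 probes, with a threshold of 0.05. An exact permutation test of 2 arrays against 2 cannot go below p = 0.333. The number of arrays limits the precision, with 3 residual degrees of freedom. The fit was run on simulated data with known changes and independent noise, as a check of the code. The simulation did not copy the spread or slide layout of these arrays, so it does not bear on the calls reported.

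The 6 genes and the related lists were chosen with earlier results of these data known, so no list gives independent support. Every probe of the 6 genes is reported. A list gene is represented by the tested probe whose mean is highest and is named if called in at least 1 comparison, up to 6 per list. BAX and CD52 and the other genes named beside them were named for their values or by the rule on nearest patterns (well above background on all arrays, smallest root mean square difference). Alternatives changed the scaling, the filter, the variance model, the samples or the block.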

Additional observations from a re-analysis of the deposited data

Results flagged for a closer look

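The responses to the hairpins, each against the same control arrays, were compared directly as shGATA3 with shTCF1 in limma. They differed for GFI1B and for 2 genes of the related lists, beside the targeted TCF7 and the T-lineage marker CD2. CD2 was higher in shGATA3 than in shTCF1 by 1.72 (adjusted p = 0.00107), and it was called lower than control in both. GFI1B was lower in the arrays labelled shGATA3 by a log2 difference of -1.43 (adjusted p = 0.0272). SOCS3 had a difference of -0.92 (adjusted p = 0.0061) with means below control in shGATA3 (not called) and above it in shTCF1. HDAC5 had a difference of -0.64 (adjusted p = 0.0238) with means below and above control, neither called. With 2 arrays per group no array could be tested as an outlier.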

How the results depend on the processing

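The count of the 7 probes called between shGATA3 and control, 1 as reported, was 0 with 75th percentile scaling, quantile normalization, cyclic loess, the deposited matrix, no filter on dim probes, the replicate block or the 4 arrays compared alone, and 0 to 1 with 1 array left out. Between shTCF1 and control, 0 as reported, it was 1 with quantile normalization, cyclic loess or probes well above background on all arrays, 2 with normexp or an intensity trend, and 0 to 1 with 1 array left out. Between shGATA3 and shTCF1, 1 as reported, it was 0 with the deposited matrix or no filter, and 0 to 1 with 1 array left out.

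Of the 47 list genes, the 3 called between shGATA3 and control became 7 with normexp, 0 with the deposited matrix, 5 with probes well above background on all arrays, 1 with no filter and 8 with a trend (0 to 2 with 1 array left out). The 8 called between shTCF1 and control became 0 with the deposited matrix, 4 with no filter and 15 with a trend (1 to 9). The 2 called between shGATA3 and shTCF1 became 4 with normexp, 0 with the deposited matrix, 1 with no filter, 5 with a trend and 1 with the 4 arrays alone (1 to 3).

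Over all probes, the 2130, 5274 and 1925 calls became 560, 2272 and 901 with no filter, 3910, 7343 and 3273 with a trend, 4280, 7728 and 3281 with normexp, and 0 each with the deposited matrix. With 1 array left out they ranged over 437 to 1454, 865 to 4930 and 701 to 1214. The share of calls that were higher was 42.1% and 42.6% against control as reported and 53.6% and 54.8% with 75th percentile scaling. It was 53% and 53.3% with quantile normalization.

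The deviations of same-numbered samples had correlations of -0.04, -0.00982 and 0.05. No effect shared by them was visible, but whether the samples were paired in the experiments is not known. With the replicate as a block, the calls over all probes were 1328, 3853 and 1285, and 0, 0 and 1 of the 7 probes were called.

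Directions turned as follows. With the deposited matrix, HDAC1 gave 1.32 and 1.37 against control in shGATA3 and shTCF1, HDAC2 A_23_P122304 1.28 and 1.06, GFI1 -0.228, -0.136 and, between the hairpins, -0.0916, RCOR1 -0.0254 in shTCF1, HDAC5 1.29 in shGATA3, and SPI1 0.554, 0.567 and -0.0136. In that matrix HDAC1 was 13.63 in control replicate 1, 10.52 in control replicate 2 and 13.31 to 13.52 in the hairpin columns. HDAC2 A_23_P122304 was 12.94, 9.88 and 12.36 to 12.77. The column of control replicate 2 correlated with no scanner array above 0.063. RCOR1 in shGATA3 was 0.0075 with 75th percentile scaling and 0.0318 with normexp, and GFI1 between the hairpins was -0.0586 with normexp. With 1 array left out, values reached from -0.195 to 0.111 for RCOR1 and from -1.51 to 0.378 for HDAC2 A_33_P3309924 in shGATA3. They reached from -0.0583 to 0.167 for GFI1, from -0.00549 to 0.173 for RCOR1 and from -0.167 to 0.0312 for HDAC1 in shTCF1. Between the hairpins they reached from -0.109 to 0.117 for GFI1, from -0.279 to 0.0271 for RCOR1, from -0.131 to 0.0671 for HDAC1 and from -0.0638 to 0.0966 for SPI1. None of the values that turned was called. The cause was not tested. A block for slide or scan was not run, because there was 1 of each.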
